A study of Saccharomyces cerevisiae with 6 samples.

Results

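The 43 genes described here are the yeast transcription factor gene GCN4 and 42 genes of amino acid metabolism grouped with it as genes under its control. They were found by gene symbol among the 5449 yeast genes that the array annotation names, and each had 1 probe set. Transcript levels were measured on 6 Affymetrix Yeast Genome 2.0 arrays of the ammonium transport mutant 26972c (mep1-1, mep2∆, Mep3, ura-). On 3 arrays the cells carried GmbHLHm1, which encodes a soybean basic helix-loop-helix transcription factor also called SAT1, in the plasmid pYES3 behind a galactose-induced promoter. On the other 3 arrays the cells carried the empty vector pYES3. All cultures grew first on glucose with L-proline and were sampled after 12 h in 2% galactose with 1 mM ammonium, so both groups share the strain, the vector, the shift in sugar and the ammonium. The labels call the replicates independent but describe inoculation from starter cultures without giving each replicate its own, so the p-values measure the spread between these samples, and GmbHLHm1 and any difference between the transformants cannot be told apart. The question put to these genes is whether their transcripts differ in level in cells that carry the soybean gene, whose own transcript was not analysed here.

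Gcn4 is the activator of general amino acid control in budding yeast. When an amino acid runs short, uncharged tRNA activates the kinase Gcn2, initiation factor eIF2 is phosphorylated, and ribosomes then pass the short upstream reading frames of the GCN4 messenger RNA and translate Gcn4. The protein switches on enzyme genes in most amino acid pathways together and is degraded quickly when supply recovers. Because this control acts mainly on translation and protein stability, an array, which measures transcripts, does not show how much Gcn4 protein the cells held.

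In GmbHLHm1 cells the amino acid synthesis genes moved little and not in 1 direction. ARO2, for chorismate synthase, rose 1.70-fold, HIS1, for the first enzyme of histidine synthesis, 1.44-fold, and ARG3, for ornithine carbamoyltransferase, 1.28-fold. HIS4, SER3, ILV1, ARG4, SER1 and CHA1 fell, by 0.41 to 0.22 on the log2 scale. The other 34 members did not pass the test, GCN4 among them, and none of the 43 differed 2-fold. Thus 3 of the 43 members (6.98%) rose and 6 (14.0%) fell, against 7.45% and 4.64% of all tested genes, and 20.9% of members against 12.1% of all genes passed in either direction. The share that rose is near the background, while the share that fell is above it. That difference between members and other genes was not tested, and the members were chosen with earlier results of these data known. The median log2 change was -0.10 over the members and 0.02 over all tested genes, and 30 of the 43 members (69.8%) had a log2 change below 0, against 43.3% of all genes. In 25 members (58.1%) the 3 values of each group lay apart without overlap, against 33.2% of all genes. An unadjusted p under 0.05 (limma) was reached by 19 of the 43 members and by 1468 of the 5449 tested genes. The test was limma's moderated test on log2 intensities, two-sided, with Benjamini-Hochberg adjustment over all 5449 genes and a threshold of 0.05. Only ARO2 and ARG3 passed in all 6 fits that left out 1 array. The number of members that fell was 0 without empty vector replicate 1, 1 without replicate 2 and 0 without replicate 3, and 5, 6 and 7 without GmbHLHm1 replicates 1, 2 and 3. Calls were lost over the whole array too. All tested genes past the test, 659 with all arrays, became 251, 341 and 293 without empty vector replicates 1, 2 and 3. They became 723, 720 and 462 without GmbHLHm1 replicates 1, 2 and 3.

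**Figure D1:**
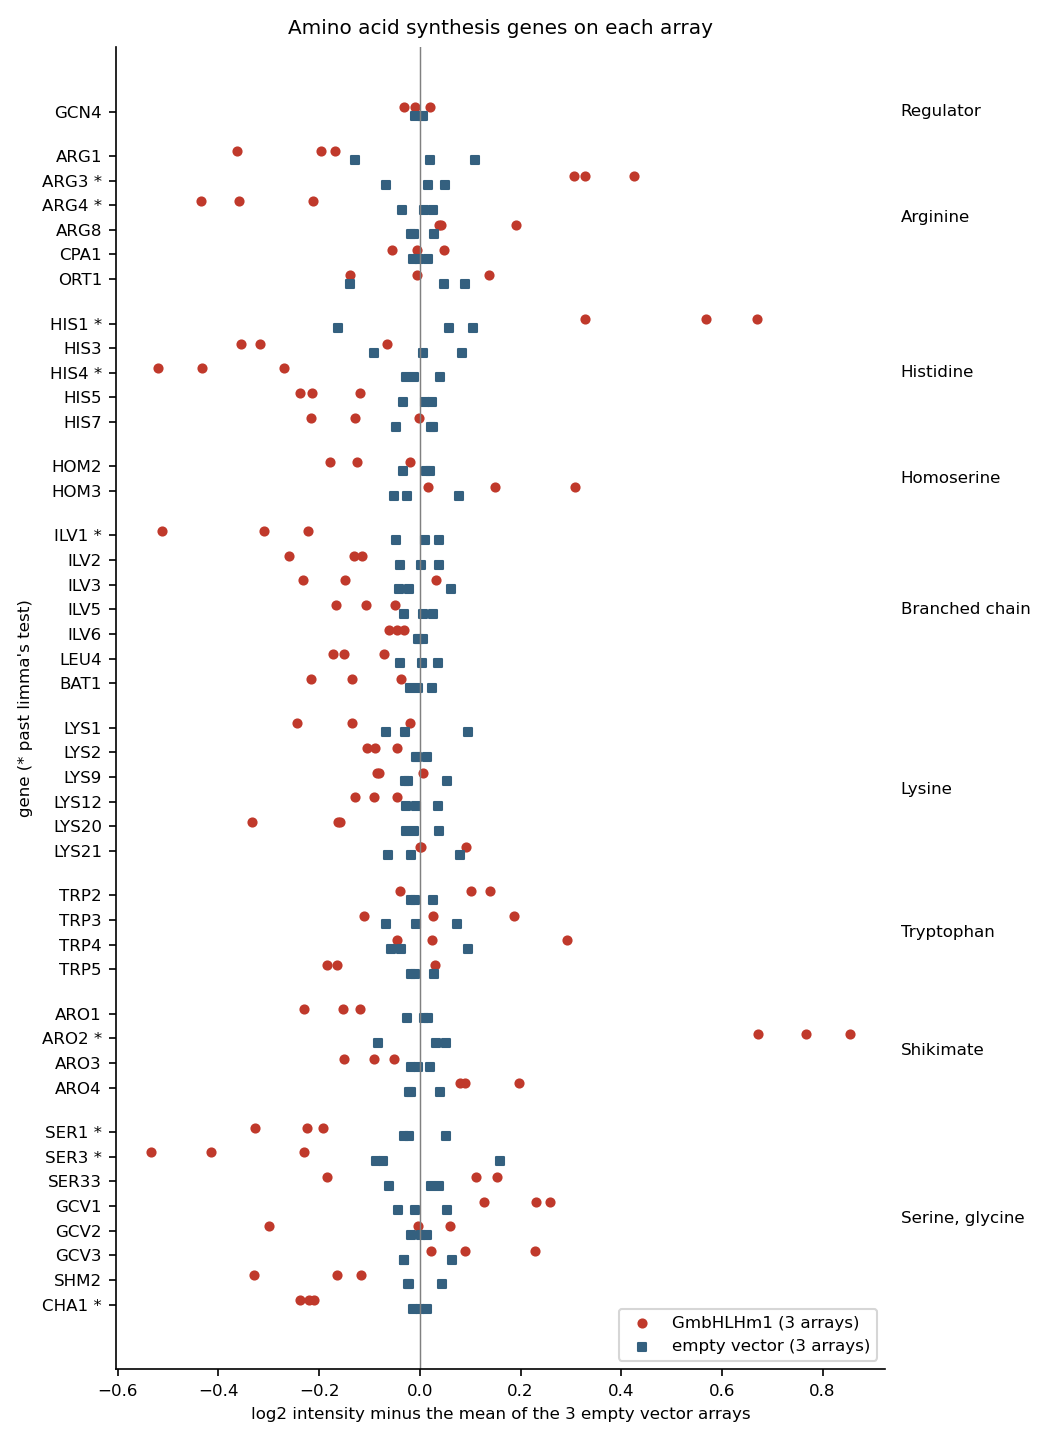
Log2 intensity of the 43 members on each array, less the mean of the gene's 3 empty vector arrays, by amino acid branch; each point is 1 array, circles are GmbHLHm1 and squares the empty vector, and a star marks the 9 members past the test. ARO2, HIS1 and ARG3 lie to the right of all their empty vector arrays, as do ARG8, ARO4 and GCV1, which did not pass. All 7 branched-chain genes have GmbHLHm1 means to the left of 0.

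The median log2 intensity over the tested genes was 10.32 to 10.37 on the 6 arrays, and all 43 members lay above the background level on every array. MEP2, deleted in this strain, averaged 3.87 in GmbHLHm1 cells and 4.27 in empty vector cells on the log2 scale, below the background level in both. It still passed the test although the gene is deleted (log2 change -0.40, adjusted p = 0.0433, limma). That call was lost in each fit without an empty vector array (highest adjusted p 0.159). URA3, a pyrimidine synthesis gene, rose by 1.35 (adjusted p = 0.0105, limma), MEP3, an ammonium permease gene, rose by 0.91 (adjusted p = 0.0138) and MEP1, the mutated permease gene, fell by 0.46 (adjusted p = 0.0109). The call was lost for URA3 without empty vector replicate 1, for MEP3 without replicate 1 or 2 and for MEP1 without replicate 3 (highest adjusted p 0.0677). Ribosomal RNA controls (18S and 25S, 16 probe sets) were dimmer on the GmbHLHm1 arrays, with a median log2 difference of -1.01 and array means of 7.83 to 8.27, against 8.80 to 9.46 with the empty vector. Of 9 markers of mating type, 4 of the 5 specific to a cells rose (log2 changes of 0.41 to 1.33 for STE2, MFA1, BAR1 and MFA2, each past the test), and of the 4 specific to alpha cells 1, MF(ALPHA)1, rose, by 0.64, a call lost without empty vector replicate 1 or 2 (highest adjusted p 0.0930). Of all tested genes 7.45% rose. STE6, the other a-specific gene, had 0.40 without overlap of the groups (adjusted p = 0.0872, limma). Of the other alpha-specific genes, SAG1 had -0.25 without overlap (adjusted p = 0.0826, limma), MF(ALPHA)2 0.07 and STE3 -0.05. All 9 markers lay above the background level on every array, and the strain's mating type is not settled here. The part that these differences have in the members' values was not tested.

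GCN4 itself had log2 intensities of 14.12, 14.07 and 14.09 in GmbHLHm1 cells, against 14.09, 14.11 and 14.10 in empty vector cells. The groups overlapped throughout, with a log2 change of -0.0073 ± 0.04 (SE, adjusted p = 0.937, limma). Its sign turned when the tested genes were quantile normalized, where the log2 change was 0.02.

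The arginine branch, with 6 members, held 1 gene that rose and 1 that fell. Thus 33.3% passed, against 12.1% of all tested genes, a difference that was not tested. ARG3, whose enzyme joins ornithine and carbamoyl phosphate to citrulline, had log2 intensities of 11.53, 11.63 and 11.51 in GmbHLHm1 cells, against 11.22, 11.25 and 11.14 in empty vector cells. Its 3 GmbHLHm1 arrays all lay above its empty vector arrays (log2 change 0.35 ± 0.05 (SE), adjusted p = 0.00815, limma). ARG4, the argininosuccinate lyase gene of the last step, had 11.84, 11.76 and 11.98 with GmbHLHm1, against 12.16, 12.22 and 12.20 with the empty vector. It fell by 0.34 ± 0.06 (SE; adjusted p = 0.0182, limma), a call lost in each of the fits without an empty vector array (highest adjusted p 0.0779). ARG1, argininosuccinate synthetase, which works between these enzymes, had a log2 change of -0.24 and did not pass (adjusted p = 0.101, limma), although its groups did not overlap. ARG8, the acetylornithine aminotransferase gene, had 0.09, CPA1, the small subunit of the carbamoyl phosphate synthetase for arginine, -0.0042, and ORT1, the carrier that takes ornithine out of mitochondria, -0.0022. Those of CPA1 and ORT1 are within 1 SE of 0 and turned sign with quantile normalization and with array weights, in that order.

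In the histidine branch, with 5 members, 1 gene rose and 1 fell. Thus 40.0% passed, against 12.1% of all tested genes, a difference that was not tested. HIS1, ATP phosphoribosyltransferase, the step that histidine inhibits, had log2 intensities of 11.86, 11.62 and 11.96 in GmbHLHm1 cells, against 11.13, 11.40 and 11.35 in empty vector cells. Its lowest GmbHLHm1 array, replicate 2, was still above the highest empty vector array, and the gene rose by 0.52 ± 0.11 (SE; adjusted p = 0.0217, limma). HIS4, a multifunctional enzyme of early steps and the last one whose promoter is a classical Gcn4 target, had 11.46, 11.37 and 11.62 with GmbHLHm1, against 11.88, 11.86 and 11.93 with the empty vector. It fell by 0.41 ± 0.07 (SE; adjusted p = 0.0120, limma), the lowest log2 change of the 43. HIS5, histidinol phosphate aminotransferase, had a log2 change of -0.19 just outside the threshold (adjusted p = 0.0521, limma), HIS3, imidazoleglycerol phosphate dehydratase, -0.25 and HIS7, imidazoleglycerol phosphate synthase, -0.12. HIS1 lost its call without GmbHLHm1 replicate 3 or empty vector replicate 1 or 3 (adjusted p of up to 0.0851), and HIS4 without empty vector replicate 1 or 3 (up to 0.0578).

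The 2 members that serve the common path to homoserine, from which threonine and methionine are made, did not pass limma's test, nor an unadjusted p of 0.05. Of all tested genes 12.1% passed, and 1468 of 5449 had an unadjusted p under 0.05. HOM3, aspartate kinase, the entry step, had 12.18, 12.05 and 12.34 in GmbHLHm1 cells, against 12.01, 11.98 and 12.11 in empty vector cells (log2 change 0.16 ± 0.08, SE, and 0.083 without GmbHLHm1 replicate 3). HOM2, aspartate semialdehyde dehydrogenase, the next step, had 12.71, 12.65 and 12.81 with GmbHLHm1, against 12.80, 12.85 and 12.84 with the empty vector (log2 change -0.11 ± 0.05, SE). The groups overlapped for both genes, whereas they lay apart in 33.2% of all tested genes.

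All 7 members of the branched-chain branch, which makes isoleucine, valine and leucine largely in mitochondria, had log2 changes below 0, against 43.3% of all tested genes, and in 6 of them the groups did not overlap, against 33.2%. Only 1 of the 7 (14.3%) passed the test, near the 12.1% of all genes. ILV1, threonine deaminase, which commits threonine to isoleucine, had log2 intensities of 11.45, 11.25 and 11.54 in GmbHLHm1 cells, against 11.71, 11.77 and 11.80 in empty vector cells. It fell by 0.35 ± 0.08 (SE; adjusted p = 0.0307, limma), a call lost in each of the fits without an empty vector array (highest adjusted p 0.111). ILV6, the regulatory subunit of acetolactate synthase, was the nearest to 0, with 13.26, 13.27 and 13.29 in GmbHLHm1 cells, against 13.33, 13.32 and 13.32 in empty vector cells (log2 change -0.05 ± 0.04, SE). The catalytic subunit gene ILV2 had -0.17, the reductoisomerase gene ILV5 -0.11 and the dihydroxyacid dehydratase gene ILV3 -0.12; ILV3 was the 1 gene of the branch whose groups overlapped. LEU4, an isopropylmalate synthase that opens the leucine path, and BAT1, the mitochondrial branched-chain aminotransferase, each had -0.13. The branch median was -0.13, and none of these 6 passed the test.

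No member of the lysine branch, which runs through aminoadipate, passed limma's test (1 of 6, LYS20, at an unadjusted p under 0.05), and the branch median log2 change was -0.08. Over all tested genes 12.1% passed, 1468 of 5449 had an unadjusted p under 0.05, and the median was 0.02. LYS20, a homocitrate synthase of the first step, was the lowest, with 12.88, 12.71 and 12.88 in GmbHLHm1 cells, against 13.01, 13.03 and 13.08 in empty vector cells. The groups did not overlap, and the log2 change was -0.22 ± 0.06 (SE, adjusted p = 0.0622, limma). LYS21, the second homocitrate synthase, had 11.92, 11.92 and 12.01 with GmbHLHm1, against 12.00, 11.90 and 11.85 with the empty vector, overlapping groups and a log2 change of 0.03 ± 0.06 (SE). LYS12, homoisocitrate dehydrogenase, LYS2, aminoadipate reductase, and the saccharopine dehydrogenase genes LYS9 and LYS1 lay between -0.13 for LYS1 and -0.05 for LYS9.

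The aromatic branch held the largest change of all 43 members. ARO2, chorismate synthase, which finishes the shikimate path shared by tryptophan, tyrosine and phenylalanine, had log2 intensities of 11.61, 11.71 and 11.80 in GmbHLHm1 cells, against 10.86, 10.97 and 10.99 in empty vector cells. The gap between the groups was several times the spread within either one (log2 change 0.76 ± 0.06 (SE), adjusted p = 0.00057, limma), and 74 of the 5449 genes had a higher log2 change. ARO1, the pentafunctional enzyme of the steps before it, had 13.00, 12.92 and 13.03 with GmbHLHm1, against 13.16, 13.13 and 13.17 with the empty vector (log2 change -0.17 ± 0.05 (SE), adjusted p = 0.0676, limma). The DAHP synthase genes of the first step, ARO3 and ARO4, had log2 changes of -0.10 and 0.12, neither past the test.

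The 4 tryptophan genes beyond chorismate did not pass limma's test (none at an unadjusted p under 0.05), and their groups overlapped. Among all tested genes 12.1% passed, 1468 of 5449 had an unadjusted p under 0.05, and in 33.2% the groups did not overlap. TRP4, anthranilate phosphoribosyltransferase, was the highest, with 10.17, 10.10 and 10.44 in GmbHLHm1 cells, against 10.09, 10.11 and 10.24 in empty vector cells (log2 change 0.09 ± 0.09, SE). TRP5, tryptophan synthase, was the lowest, with 12.51, 12.53 and 12.72 in GmbHLHm1 cells, against 12.68, 12.67 and 12.72 in empty vector cells (log2 change -0.11 ± 0.07, SE). TRP2 and TRP3, the anthranilate synthase subunits, had log2 changes of 0.07 and 0.03, and that of TRP3 turned below 0 with quantile normalization.

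Of the 8 serine and glycine genes 3 (37.5%) fell, against 4.64% of all tested genes, and the other 5 did not pass the test. That difference in share was not tested. SER1, phosphoserine aminotransferase, had 12.11, 12.00 and 12.14 in GmbHLHm1 cells, against 12.30, 12.31 and 12.38 in empty vector cells, and fell by 0.25 ± 0.05 (SE; adjusted p = 0.0276, limma). SER3, a phosphoglycerate dehydrogenase of the first step, had 9.38, 9.57 and 9.26 with GmbHLHm1, against 9.96, 9.72 and 9.71 with the empty vector. It fell by 0.39 ± 0.10 (SE; adjusted p = 0.0433, limma) and kept the call in 1 of the 6 fits that left out an array, the one without GmbHLHm1 replicate 2. CHA1, a mitochondrial serine and threonine deaminase that breaks these amino acids down rather than making them, had 11.79, 11.81 and 11.82 with GmbHLHm1, against 12.05, 12.02 and 12.03 with the empty vector. Its replicates were close together in both groups, and it fell by 0.22 ± 0.04 (SE; adjusted p = 0.0151, limma). SER1 and CHA1 lost the call in each fit without an empty vector array (highest adjusted p 0.113 and 0.0822).

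GCV1, GCV2 and GCV3 encode subunits of the mitochondrial glycine cleavage complex, which splits glycine and charges the one-carbon pool, and did not pass the test. GCV1, the T subunit, was the highest of the branch, with 11.56, 11.46 and 11.59 in GmbHLHm1 cells, against 11.29, 11.32 and 11.39 in empty vector cells. Its groups did not overlap, and its log2 change of 0.21 ± 0.05 (SE) was just outside the threshold (adjusted p = 0.0530, limma). GCV3, the H subunit, had a log2 change of 0.11 and GCV2, the P subunit, -0.08. SHM2, the cytosolic serine hydroxymethyltransferase that links serine and glycine, had -0.20 (adjusted p = 0.0923, limma).

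**Figure D2:**
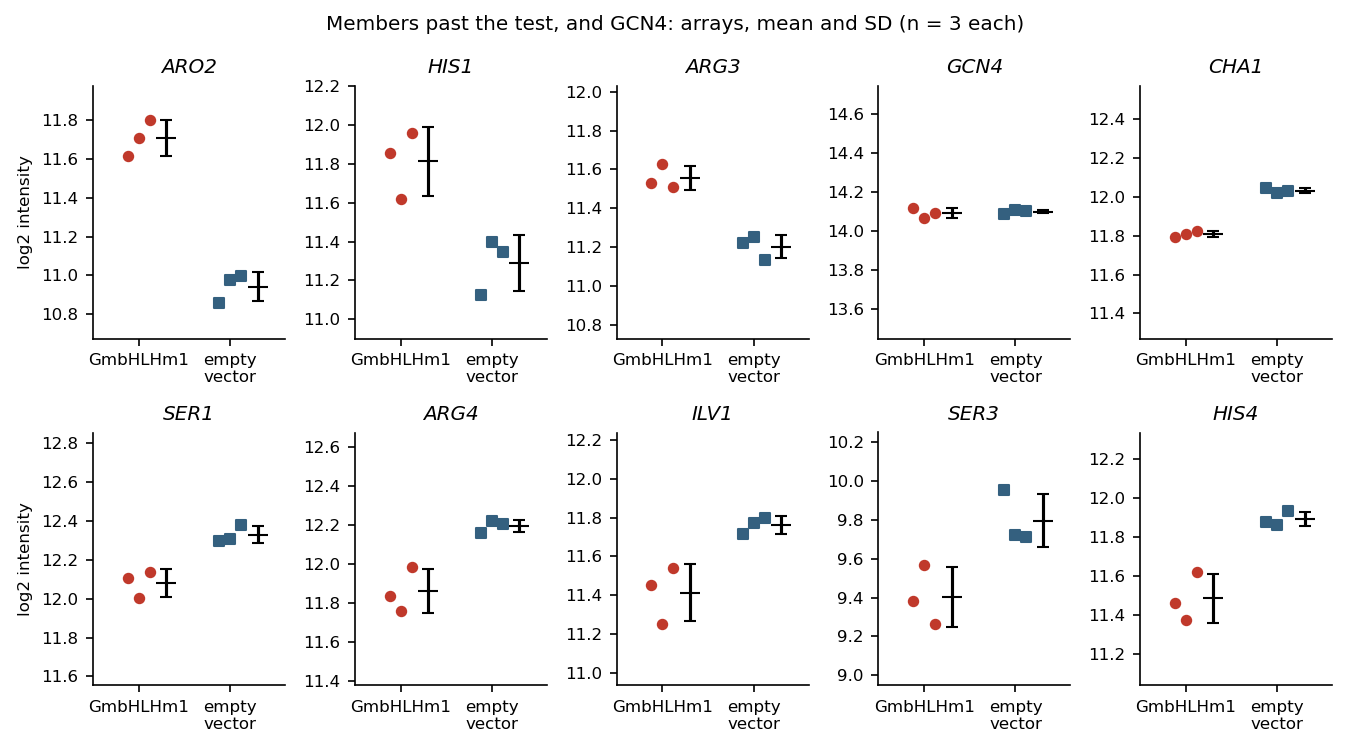
Log2 intensity of the 9 members past the test and of GCN4 in each of the 3 GmbHLHm1 arrays (circles) and the 3 empty vector arrays (squares); bars are the mean and SD, and every panel spans the same range of log2 units. The groups stand apart in the 9 genes past the test, by 0.76 for ARO2 and 0.22 for CHA1, and lie on each other for GCN4.

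Several steps are served by a pair of isozymes, and the genes of a pair can be set against each other on the same array. For 5 such pairs the within-array log2 difference was compared between the groups by an exact permutation test, two-sided, which with 3 arrays against 3 cannot give less than 0.1, so no pair could pass a threshold of 0.05. SER3 less SER33, the second phosphoglycerate dehydrogenase gene, was -2.65, -2.17 and -2.81 in GmbHLHm1 cells, against -1.91, -2.22 and -2.25 in empty vector cells. The groups overlapped (difference -0.42, exact p = 0.3), and SER33 itself had 12.03, 11.74 and 12.07 with GmbHLHm1, against 11.86, 11.94 and 11.96 with the empty vector, a log2 change of 0.03.

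In the other 4 pairs the groups did not overlap, and each gave an exact permutation p = 0.1, or 0.125 after Benjamini-Hochberg adjustment over the 5 pairs. Groups also lay apart in 33.2% of single tested genes, and the share among other pairs of genes was not counted. LYS20 less LYS21 was 0.96, 0.79 and 0.87 in GmbHLHm1 cells, against 1.02, 1.13 and 1.22 in empty vector cells, so that their log2 changes differed by -0.25. For the DAHP synthases, of which phenylalanine inhibits Aro3 and tyrosine Aro4, ARO3 had 11.52, 11.46 and 11.56 with GmbHLHm1, against 11.61, 11.60 and 11.63 with the empty vector. ARO4 had 12.32, 12.30 and 12.42 with GmbHLHm1, against 12.21, 12.20 and 12.26 with the empty vector. ARO3 was thus lower and ARO4 higher in every GmbHLHm1 array than in any empty vector array, and their log2 changes differed by -0.22.

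LEU4 had 13.37, 13.47 and 13.39 in GmbHLHm1 cells, against 13.55, 13.50 and 13.58 in empty vector cells. Its paralogue LEU9 had 8.78, 8.83 and 8.99 with GmbHLHm1, against 8.74, 8.76 and 8.87 with the empty vector, and the log2 changes differed by -0.21, or by -0.14 without GmbHLHm1 replicate 3. With quantile normalization the log2 changes of LEU4 and LEU9 differed by -0.15 (exact permutation p = 0.2). The mitochondrial aminotransferase gene BAT1 had 11.36, 11.28 and 11.46 in GmbHLHm1 cells, against 11.47, 11.52 and 11.49 in empty vector cells. Its cytosolic counterpart BAT2 had 11.72, 11.91 and 11.65 with GmbHLHm1, against 11.65, 11.64 and 11.60 with the empty vector. The log2 changes of BAT1 and BAT2 differed by -0.26, and by -0.14 without GmbHLHm1 replicate 2.

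**Figure D3:**
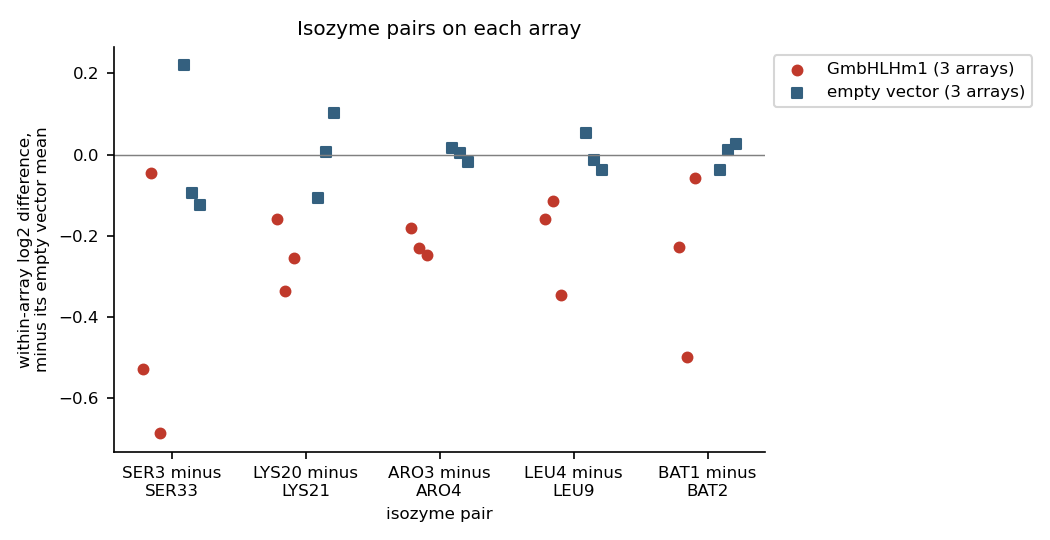
Within-array difference in log2 intensity between the genes of 5 isozyme pairs, less its mean over the 3 empty vector arrays; each point is 1 array, circles are GmbHLHm1 and squares the empty vector. In 4 pairs every GmbHLHm1 array lies below the empty vector arrays, and for SER3 and SER33 the groups overlap. The share of other gene pairs whose groups lie apart was not counted.

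The members varied together among the GmbHLHm1 arrays. Replicate 3 was the highest of the 3 arrays in 33 of the 43 members and replicate 2 the lowest in 30, whereas over all tested genes replicate 3 was the highest in 1364 of 5449 and replicate 2 the lowest in 1914. Measured against the empty vector mean, the members' median was -0.09, -0.16 and -0.02 in GmbHLHm1 replicates 1, 2 and 3, and 30, 32 and 25 of the 43 members lay below it. The median SD of a member among replicates was 0.09 with GmbHLHm1 and 0.04 with the empty vector, close to the 0.09 and 0.05 over all genes. The members' median was thus below 0 on all 3 GmbHLHm1 arrays and nearest to 0 on replicate 3. Over all tested genes the median was 0.039, 0.0096 and 0.0054 on replicates 1, 2 and 3. The share of all genes below the empty vector mean was not counted by array.

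Enzymes of the same pathways that are not among the members were taken from a list written from general knowledge, with earlier results of these data known. Of 30 tested, 5 (16.7%) rose and 1 (3.33%) fell, against 7.45% and 4.64% of all tested genes, with a median log2 change of 0.05; the difference from the other genes was not tested. ARO9, an aromatic aminotransferase that aromatic amino acids induce, had 9.14, 9.45 and 9.29 in GmbHLHm1 cells, against 7.98, 8.21 and 8.41 in empty vector cells. It rose 2.14-fold (log2 change 1.09 ± 0.12 (SE), adjusted p = 0.00198, limma) and passed in all 6 fits without 1 array. TYR1, prephenate dehydrogenase of tyrosine synthesis, rose by 0.18 on the log2 scale (adjusted p = 0.0348, limma). Of these aromatic genes ARO8, the constitutive aminotransferase gene, had -0.04, and ARO7, chorismate mutase, which draws on the product of Aro2, 0.20 without passing.

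The other 3 that rose supply or use glycine. GLY1, threonine aldolase, had 12.66, 12.91 and 13.00 in GmbHLHm1 cells, against 12.30, 12.45 and 12.46 in empty vector cells, and rose by 0.46 ± 0.09 (SE; adjusted p = 0.0235, limma). AGX1, alanine glyoxylate aminotransferase, rose by 0.28 (adjusted p = 0.0161, limma). LPD1, the dihydrolipoamide dehydrogenase that glycine cleavage shares with pyruvate and oxoglutarate dehydrogenases, rose by 0.25 (adjusted p = 0.0182, limma). SER2 and SHM1, the other serine and glycine genes of this list, had log2 changes of 0.40 and -0.07 and did not pass. HIS6, an isomerase gene of histidine synthesis, was the 1 gene that fell, by 0.21 (adjusted p = 0.0407, limma). AGX1 and LPD1 lost the call in each fit without an empty vector array (highest adjusted p 0.0825 and 0.0927), and GLY1, TYR1 and HIS6 passed in 1 of the 6 fits, the one without GmbHLHm1 replicate 1 (up to 0.156).

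Among 15 genes of general control itself 1 (6.67%) passed, below the 12.1% of all tested genes. PCL5, the cyclin that directs the kinase Pho85 to mark Gcn4 for degradation and is itself a Gcn4 target, had 10.26, 10.14 and 10.15 in GmbHLHm1 cells, against 10.75, 10.58 and 10.73 in empty vector cells. It fell by 0.50 ± 0.06 (SE; adjusted p = 0.00301, limma) and passed in all 6 fits without 1 array. PHO85 had a log2 change of -0.01, and the sensor kinase gene GCN2 -0.0096. The 12 genes that act on translation of GCN4, such as GCN2, GCN1 and the eIF2B subunit genes, ranged from -0.06 for GCN20 to 0.14 for SUI2, which encodes eIF2 alpha, and none passed limma's test (1 at an unadjusted p under 0.05). None of 9 regulators of single pathways, such as LEU3, LYS14, BAS1 and CHA4, passed limma's test, against 12.1% of all genes. None of these regulators reached an unadjusted p under 0.05 (limma), which 1468 of all 5449 tested genes reached. ARG80, a repressor gene of arginine synthesis, had the smallest p among them, with a log2 change of -0.18 ± 0.08 (SE, adjusted p = 0.206, limma), which was -0.34 with quantile normalization and -0.10 without GmbHLHm1 replicate 1. LEU3, the activator of leucine synthesis genes, had overlapping groups with equal means of 9.99.

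**Figure D4:**
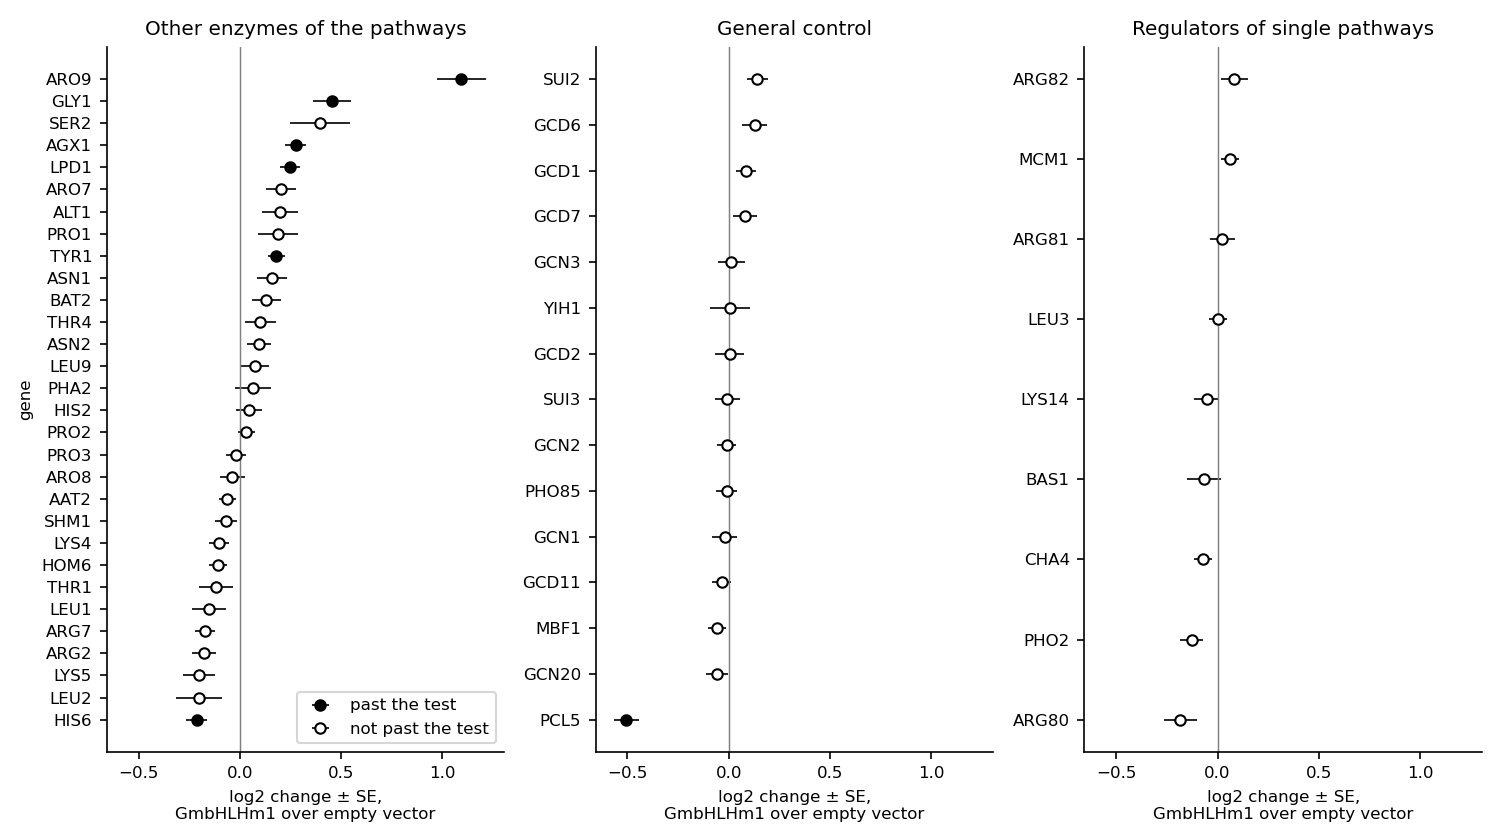
Log2 change of GmbHLHm1 over empty vector with its standard error for 30 other enzymes of the pathways, 15 genes of general control and 9 regulators of single pathways; filled points passed the test. ARO9 stands at 1.09 and PCL5 at -0.50, while the regulators lie between -0.18 and 0.08.

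The genes next to the members on the chromosomes were examined as well. Of the 15 tested neighbours of the 9 members past the test 1 passed, SIP4, a neighbour of ARG3, which fell by 0.37 while ARG3 rose; SIP4 encodes an activator of gluconeogenic genes. Over all 43 members 7 of 71 tested neighbours passed, against 12.1% of all genes.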

How the data were processed

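The authors' deposited values are RMA intensities, per the submitters' processing notes, and their range (5.00 to 28314) shows a linear scale; the software is not given in the sources used here. RMA corrects background, quantile normalizes and summarises probes. Array distributions are thereby made alike, which hides a shift of all transcripts, and 3 arrays per group limit the precision. Values were then log2 transformed. Probe sets were named by the platform annotation and the gene table of assembly R64 (names and neighbours only): 5498 probe sets gave 5449 genes, the brightest probe set standing for a gene. Another 1746 probe sets, with gene identifiers outside that table, gave the background level, their 95th percentile on an array (23.2 to 26.9 in intensity). For 3 genes of the lists no probe set was named here, and TRP1 and ARG5,6 are among the list genes not analysed.

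The test between the groups was that of limma 3.58.1 (R 4.3.3; lmFit and eBayes without block or filter), which was tested on simulated data. No set test was run. The members and lists were chosen with earlier results of these data known. Named with values on every array are GCN4, members past the test, each branch's extremes and isozyme pairs; of other lists, up to 4 highest and 4 lowest past the test are named, or the smallest p. TYR1, ARO7, ARO8, SER2, SHM1, PHO85, GCN2, GCN20, SUI2, LEU3 and SIP4 were added after their values were seen. Promoter and protein sequences were not used here. Alternatives were a replicate block, other scalings, filters, weights, priors, pseudocount, threshold and leaving out each array. Figures used matplotlib 3.10.9.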

Additional observations from a re-analysis of the deposited data

How the results depend on the processing

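The 3 members that rose stayed between 2 and 4 under every alternative run. The 6 that fell became 2 with the replicate block, 13 with a trend and robust prior, 1 without moderation and 0 at a threshold of 0.01, and 0 to 7 without 1 array. Replicate numbers did not pair the samples (correlations of deviations -0.07, -0.08 and 0.14 for numbers 1, 2 and 3); with the block 4 of the 9 members kept the call, ARG3, ARG4, HIS4 and ARO2. Among the other pathway enzymes the 5 that rose became 3 with the replicate block, 3 without moderation and 1 at the threshold of 0.01, and 1 to 6 without 1 array. The 1 that fell became 0 with the block, without moderation or at 0.01, 2 with quantile normalization and 3 with the trend and robust prior, and 0 to 1 without 1 array. All tested genes past the test, 659, became 427 with the block, 284 without moderation, 243 at 0.01 and 251 to 723 without 1 array. The members' median stayed between -0.12 and -0.07. Without 1 array, the log2 change moved by over 1.5 times or turned sign in 18 of the 34 members not past the test (such as ARG8, HIS7, ILV3, LYS1, TRP5 and GCV3) and in 0 of the 9 past it in limma's fit of all arrays. Those 9 were called on these same arrays for changes large against their SE, so this contrast cannot show that their calls are stable. Only ARG3 and ARO2 among them kept the call whichever array was left out. Near 0, signs turned for GCN4 (0.017), CPA1 (0.011) and TRP3 (-0.0053) with quantile normalization and for ORT1 with array weights (0.041). Without 1 array the log2 change of GCN4 ran from -0.021 to 0.0053, CPA1 from -0.030 to 0.022, ORT1 from -0.072 to 0.066, TRP3 from -0.042 to 0.11, TRP4 from -0.010 to 0.16, SER33 from -0.037 to 0.13 and GCV2 from -0.15 to 0.029. The causes were not tested.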
